A study of Mus musculus with 6 samples.

Results

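*Numa1* and the genes of its LGN-Gαi polarity complex were examined in the hippocampus of newborn *Mov10* Deletion and WT mice. The set held 8 genes, *Numa1*, *Gpsm1*, *Gpsm2*, *Gnai1*, *Gnai2*, *Gnai3*, *Pard3* and *Insc*, listed by name for the known roles of their products, out of 52230 genes with a transcript in the files. All 8 passed the filter on low counts, as did 16745 genes in all. In *Mov10* Deletion, *Gpsm2* (LGN) fell by 22.1% and *Gnai3* fell by 8.83%, both past an adjusted p of 0.05. *Numa1* differed by -7.96% and did not pass.

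The samples were 3 RNA-seq libraries of *Mov10* Deletion hippocampi and 3 of WT hippocampi at postnatal day 0 (P0), each from RNA of pooled pups. *Mov10* Deletion mice carried a floxed *Mov10* allele cut by *Emx1*-Cre and, as the study describes, a germline *Mov10* mutation from a heterozygous line, and the WT libraries are labelled only as WT. *Emx1* drives Cre in the excitatory lineage of neocortex and hippocampus, and cells that Cre does not reach keep the floxed allele. Which progenitors and glia of these libraries were cut was not measured. The study asked which mRNAs depend on MOV10, an RNA helicase that acts with the microRNA pathway. It took *Numa1* from its calls on these same samples, together with published MOV10 binding to the mRNA and a reported antagonism to the HAUS complex. It also reported less *Numa1* mRNA by RT-qPCR in P0 hippocampi and less NUMA1 staining in cultured neurons, but no significant protein difference in hippocampal extracts.

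NuMA, the product of *Numa1*, gathers microtubule minus ends at spindle poles and, at the cell cortex, binds dynein, the motor that pulls on astral microtubules. It is held at the cortex by LGN (*Gpsm2*) or its paralogue AGS3 (*Gpsm1*), whose GoLoco motifs bind GDP-loaded Gαi (*Gnai1*, *Gnai2*, *Gnai3*), a lipid-anchored G protein subunit. Inscuteable (*Insc*) joins LGN to PAR3 (*Pard3*), so that the spindle can be aligned with the apical domain of a progenitor, and in neurons the PAR3 complex is known for its part in axon specification.

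The transcripts that separate the forms of *Gpsm1* and *Pard3*, and the microRNA seed matches in *Numa1*, are shown here because later results turn on them. The junctions come from the GRCm39 genome, plus strand, and in each the lower-case letters are the last bases of the upstream exon and the capitals are the first bases of the next exon of that transcript. In *Gpsm1* the upstream exon ends at position 26229718 of chromosome 2, and in *Pard3* the next exon starts at 128137210 of chromosome 8.
Gpsm1-202, cassette exon included: ctccccctggaccggGAGCAGAATGGAGAG
Gpsm1-203, cassette exon skipped: ctccccctggaccggGGTATTCCCAGGGCC
Pard3-209, exon 17 of 152 bases: gcatggatttaggtaTAGCTGACGAGACTA
Pard3-219, exon 17 of 149 bases: aaagcatggatttagTAGCTGACGAGACTA
Pard3-224, exon 17 of 62 bases: gatttggacgccagaTAGCTGACGAGACTA
The *Gpsm1* cassette exon lies at 26230417 to 26230596 and holds 180 bases, or 60 codons with none left over. The *Pard3* forms share the start of exon 17, at 128136037, and differ in the splice donor at its end.

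The study examined several microRNAs at the *Numa1* 3′ UTR, and 2 of them had a mature sequence in the RefSeq table used here (build GRCm38.p6), while miR-124-3p and miR-133a-3p are named only. The seed, bases 2 to 8, is in capitals.
miR-335-5p: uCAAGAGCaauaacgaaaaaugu
miR-543-3p: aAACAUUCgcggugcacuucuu
These seeds differ from each other. The search covered the 934 bases between the *Numa1* stop codon and the end of *Numa1-201* on GRCm39, plus strand. The letters GCTCTTG that pair with the whole seed of miR-335-5p occurred 1 time, 438 bases after the stop codon. For miR-543-3p only the 6 letters AATGTT occurred, 672 bases after the stop codon. They pair with all of the seed but its last base. An A, a letter that the search left out, follows this match and also that of miR-335-5p. Both matches are in capitals in their surroundings.
miR-335-5p match, chr7:101663892-101663898: caggggtctttGCTCTTGaagcccaggat
miR-543-3p match, chr7:101664126-101664131: gatcttttctaAATGTTattacttgtaa
Among 879 genes with a 3′ UTR of similar length, 10.2% held the 7 letters for miR-335-5p and 9.90% those for miR-543-3p (GAATGTT). *Numa1* lacks the 7 letters for miR-543-3p, and no share was computed for the match that it holds. Only the transcript strand was searched, and a match is a description of the letters. Of the *Numa1* transcripts in the files, with exons as in GENCODE M39, both *Numa1-201* and *Numa1-202* hold the 2 matches, and *Numa1-203* to *Numa1-208* hold neither.

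The 6 libraries held 71400300 to 86207971 estimated counts. *Mov10*, the targeted gene, was at 2.45, 2.13 and 2.09 CPM (counts scaled to the size of the library) in *Mov10* Deletion, against 4.81, 4.75 and 4.80 CPM in WT (log2 fold change -1.11, adjusted p = 0.00115), as its label has it. All 14 markers of hippocampal excitatory neurons passed the filter, and their summed level was 3586 to 3854 CPM in *Mov10* Deletion and 3387 to 3502 CPM in WT. The gap lay in *Zbtb20*, a hippocampal transcription factor gene: without it the sums were 2065 to 2099 CPM in *Mov10* Deletion and 2074 to 2147 CPM in WT. Over the list 2 of 14 were called (14.3%, against 24.7% of all tested genes), and the median log2 fold change was -0.04. The groups differed in sex make-up. *Xist*, expressed in females, was at 0.184, 888.1 and 1.57 CPM in *Mov10* Deletion and at 181.7, 250.7 and 642.6 CPM in WT, and the Y-linked *Ddx3y* was at 61.2, 22.3 and 60.1 CPM in *Mov10* Deletion and at 60.4, 24.1 and 34.8 CPM in WT. *Xist* was thus near 0 in *Mov10* Deletion 1 and *Mov10* Deletion 3 and high in the others. Choroid plexus and meningeal markers summed to between 35.3 and 175.6 CPM in *Mov10* Deletion and between 59.2 and 64.9 CPM in WT. The highest sum was that of *Mov10* Deletion 1. *Ttr* was at 45.6 CPM there, against 0.786 and 3.75 CPM in *Mov10* Deletion 2 and 3, and *Col1a2* at 65.2 CPM, against 13.7 and 16.8 CPM. Fewer cells of a type and less RNA per cell cannot be told apart in such bulk samples.

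Fold changes, on the log2 scale and as *Mov10* Deletion over WT, come from limma-trend with 2 factors of unwanted variation (RUVs) beside genotype. Adjusted p-values (Benjamini-Hochberg) run over all 16745 tested genes. CPM values are scaled by trimmed mean of M values (TMM) and not corrected for the factors, and n is 3 libraries per group throughout.

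*Numa1* (chromosome 7, 101583318 to 101664388, GRCm39) was at 192.2, 209.1 and 225.9 CPM in *Mov10* Deletion, against 223.7, 229.6 and 239.7 CPM in WT. The third *Mov10* Deletion library lay above the first WT library, so that the groups overlapped. With means of 209.1 ± 16.8 CPM in *Mov10* Deletion hippocampi, against 231.0 ± 8.10 CPM in WT (SD, n = 3 each), the log2 fold change was -0.12 ± 0.05 (SE), with a 95% interval of -0.23 to -0.01 and a limma-trend adjusted p of 0.0940. The unadjusted p was 0.0316. The difference was negative under each of the 19 alternative settings and passed the threshold under 5 of them: with factors from the residuals of a first fit, RUVr (adjusted p = 0.0233), and without *Mov10* Deletion 2 (0.0125), *Mov10* Deletion 3 (0.00540), WT 1 (0.0265) or WT 3 (0.0231). Without *Mov10* Deletion 1, the library with the lowest *Numa1*, the log2 fold change was -0.07 (adjusted p = 0.138). That library also had the highest sum of choroid plexus and meningeal markers, and the part of this in the *Numa1* difference was not tested. *Il18bp*, on the opposite strand, shares 446 exon bases with the *Numa1* end over all models of the annotation, some of them absent from the files. Among the models listed in the files, with their GENCODE M39 coordinates, *Il18bp* begins at 101664092 and *Numa1* ends at 101664388, so that the overlap is smaller. The ends of the models behind the counts can differ from these. *Il18bp* averaged 8.91 ± 0.498 CPM in *Mov10* Deletion hippocampi, against 6.88 ± 0.165 CPM in WT (SD, n = 3 each; adjusted p = 0.0115, limma-trend), far below *Numa1*.

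*Gpsm2* (chromosome 3, 108585954 to 108629630) encodes LGN, the main link between NuMA and Gαi in dividing progenitors. It was at 21.7, 20.0 and 20.2 CPM in *Mov10* Deletion, against 27.0, 25.2 and 27.2 CPM in WT. Each *Mov10* Deletion library lay below each WT library, and the gap between the groups was wider than the spread within either. *Gpsm2* fell by 0.36 ± 0.05 on the log2 scale (SE, limma-trend adjusted p = 0.00454), the largest fall among the 8 genes. It passed under 19 of 19 alternative settings, with log2 fold changes between -0.40 and -0.33 and an adjusted p of at most 0.0456.

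Values of some cell type markers are given beside *Gpsm2*. Of 14 cycling cell markers, 10 were called lower and 2 higher, and their summed level was 582.0, 533.2 and 529.0 CPM in *Mov10* Deletion, against 609.5, 639.1 and 646.8 CPM in WT. The genes called lower act mainly in mitosis, such as *Cdc20* and *Ccnb1*, and those called higher, *Mcm2* and *Mcm3*, load at replication origins. Of 8 astrocyte markers, *Aqp4*, *Gfap* and *S100b* were called higher and 0 lower, and their summed level was 1130 to 1200 CPM in *Mov10* Deletion and 955.7 to 1077 CPM in WT. Of 11 markers of radial glia and progenitors, 2 were called higher and 3 lower, with sums of 1563 to 1707 CPM in *Mov10* Deletion and 1434 to 1560 CPM in WT. Of 6 tested erythroid genes 3 were called lower, with overlapping sums of 213.3 to 294.7 CPM in *Mov10* Deletion and 246.9 to 308.8 CPM in WT. Of 8 endothelial and pericyte markers 1 was called higher and 2 lower, with sums of 402.3 to 473.4 CPM in *Mov10* Deletion and 410.7 to 431.3 CPM in WT. Shares called were 85.7% (cycling), 37.5% (astrocyte), 45.5% (radial glia), 50% (erythroid) and 37.5% (endothelial), against 24.7% of all tested genes. The part of these markers in the *Gpsm2* difference was not tested. *Gpsm2* also lies 3.86 Mb from *Mov10* on chromosome 3, and of the 118 tested genes within 5 Mb of *Mov10*, 24 were called (20.3%) and 12 were called lower (10.2%), against 24.7% and 12.1% of all tested genes. *Clcc1*, a chloride channel gene on the opposite strand, shares 2311 exon bases with *Gpsm2* over all models of the annotation. These include longer *Gpsm2* models that are absent from the files. Among the models listed in the files, with their GENCODE M39 coordinates, *Clcc1* ends at 108586156 and *Gpsm2* begins at 108585954, so that only their ends overlap. *Clcc1* averaged 20.9 ± 0.438 CPM in *Mov10* Deletion hippocampi, against 23.3 ± 0.602 CPM in WT (SD, n = 3 each; limma-trend adjusted p = 0.0656). The library kit marks strand, but no source used here says whether the quantification used it.

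**Figure D1:**
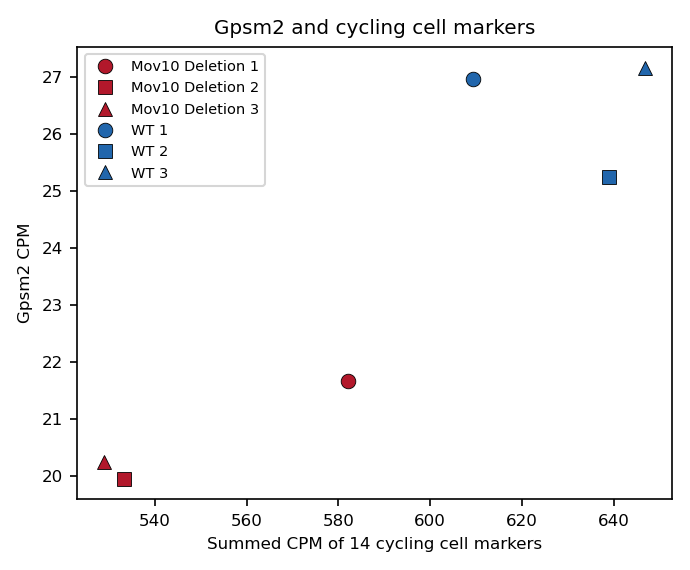
*Gpsm2* (vertical axis, TMM-scaled CPM) against the summed CPM of 14 cycling cell markers (horizontal axis), 1 point per library, with *Mov10* Deletion in red and WT in blue. Neither axis starts at 0. The *Mov10* Deletion libraries lie at 20.0 to 21.7 CPM of *Gpsm2* and 529.0 to 582.0 CPM of markers, below the WT libraries on both axes.

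*Gpsm1* (chromosome 2, 26205457 to 26238265) encodes AGS3, the LGN paralogue, which is abundant in neurons. It was at 176.7, 198.8 and 192.8 CPM in *Mov10* Deletion, against 200.1, 202.1 and 220.0 CPM in WT. The groups did not overlap, but the highest *Mov10* Deletion library lay just under the lowest WT library. Its log2 fold change of -0.10 ± 0.03 (SE, limma-trend adjusted p = 0.0678) did not pass. It passed under 4 of 19 alternatives: with RUVr factors (0.0143), and without *Mov10* Deletion 2 (0.00548), *Mov10* Deletion 3 (0.0458) or WT 1 (0.0394). Without *Mov10* Deletion 1 it was -0.06 (0.216).

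The 3 Gαi genes are close paralogues: 78.5% of aligned coding bases are identical between *Gnai1* and *Gnai2*, 78.2% between *Gnai1* and *Gnai3*, and 73.7% between *Gnai2* and *Gnai3*. The dominant transcripts of *Gnai1* and *Gnai2* share only 2 runs of 31 bases, of 3234 such runs in *Gnai1*, and the other 2 combinations share 0, so that few reads could be assigned to more than 1 of them.

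*Gnai3* (chromosome 3, 108014596 to 108053469) encodes a Gαi subunit found in most tissues. It was at 164.6, 170.5 and 159.3 CPM in *Mov10* Deletion, against 177.2, 182.4 and 189.4 CPM in WT. Again each *Mov10* Deletion library was below each WT library. *Gnai3* fell by 0.13 ± 0.04 on the log2 scale (SE, limma-trend adjusted p = 0.0437). The call stood under 14 of 19 alternatives. It was lost with a sex score (*Xist* against Y-linked genes) in place of the factors (adjusted p = 0.184), with upper-quartile normalization (0.0824), without a filter on low counts (0.0889), with replicate number in place of the factors (0.0565) and without WT 2 (0.150). *Gnai3* lies 3.29 Mb from *Mov10*, and the part of that position in the difference was not tested.

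*Gnai2* (chromosome 9, 107491324 to 107512626) encodes the Gαi subunit with the highest level here. It was at 239.3, 230.1 and 234.0 CPM in *Mov10* Deletion, against 248.7, 254.9 and 245.8 CPM in WT. The groups did not overlap, and the difference was small (log2 fold change -0.10 ± 0.03, SE, limma-trend adjusted p = 0.0722). It passed under 4 of 19 alternatives, each of which left out a library: *Mov10* Deletion 1 (0.0286), *Mov10* Deletion 2 (0.0327), *Mov10* Deletion 3 (0.0475) or WT 3 (0.0291).

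*Gnai1* (chromosome 5, 18470133 to 18565482), a Gαi gene enriched in brain, was at 110.9, 121.3 and 104.9 CPM in *Mov10* Deletion, against 113.1, 119.4 and 112.5 CPM in WT. The WT libraries lay within the range of the *Mov10* Deletion libraries. Its log2 fold change was -0.04 ± 0.06 (SE, 95% interval -0.17 to 0.10, limma-trend adjusted p = 0.674). Its sign turned with the sex score (0.04) and without *Mov10* Deletion 3 (0.02), and it passed only without *Mov10* Deletion 2 (-0.10, adjusted p = 0.0389).

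*Pard3* (chromosome 8, 127790392 to 128338767) encodes PAR3, the scaffold of the apical polarity complex. It was at 77.9, 85.5 and 84.8 CPM in *Mov10* Deletion, against 86.5, 87.4 and 85.9 CPM in WT. The first *Mov10* Deletion library stood below the rest, and the other libraries were within a few CPM of each other. The log2 fold change was -0.06 ± 0.04 (SE, 95% interval -0.15 to 0.02, limma-trend adjusted p = 0.239), and it passed under 0 of 19 alternatives, with an adjusted p of at least 0.0763.

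*Insc* (chromosome 7, 114342929 to 114449618), the Inscuteable gene, had the lowest level of the set. It was at 5.30, 6.26 and 5.73 CPM in *Mov10* Deletion, against 6.90, 5.52 and 6.57 CPM in WT. The groups overlapped, with a log2 fold change of -0.13 ± 0.10 (SE, 95% interval -0.37 to 0.11, limma-trend adjusted p = 0.387). It passed under 0 of 19 alternatives and was 0.09 when counts were scaled from TPM and length.

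**Figure D2:**
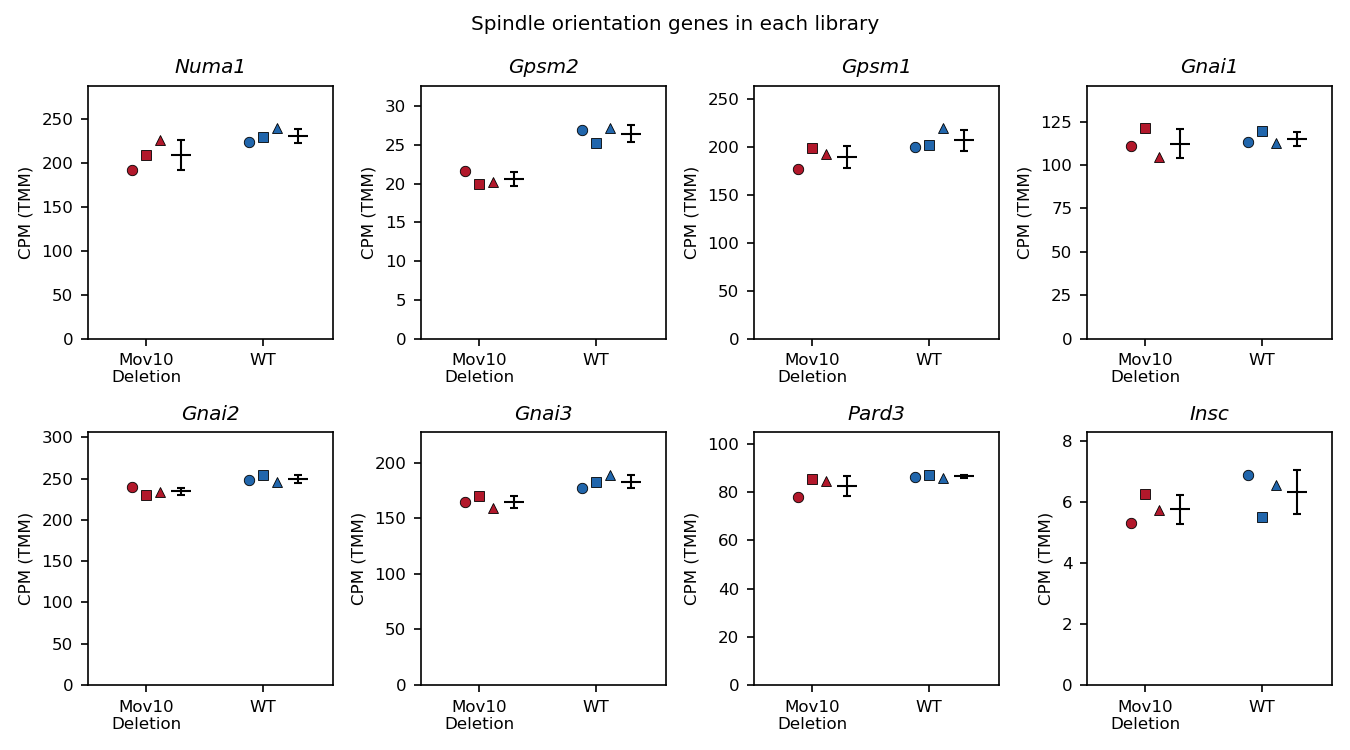
TMM-scaled CPM (vertical axes, from 0, a scale of its own in each panel) of the 8 genes in the *Mov10* Deletion libraries (red, left) and the WT libraries (blue, right), with circles, squares and triangles for replicates 1, 2 and 3, and bars for the mean ± SD (n = 3). *Gpsm2* shows the clearest gap, with 20.0 to 21.7 CPM in *Mov10* Deletion and 25.2 to 27.2 CPM in WT, and *Numa1*, *Gnai1* and *Insc* overlap between the groups.

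Of the 8 genes, 2 were called, both lower in *Mov10* Deletion (25% of the set). Of all tested genes, 24.7% were called, 12.6% higher and 12.1% lower, so that the share called was close to that of all genes. The CPM of 5 of the 8 lay lower in each *Mov10* Deletion library than in each WT library, as was so for 21.2% of all tested genes, while 41.6% did not overlap in either direction. The estimate was negative for all 8, with a median log2 fold change of -0.11, against 0.01 over all tested genes. Their summed level was 988.7 to 1042 CPM in *Mov10* Deletion and 1083 to 1127 CPM in WT. The number of the 8 that passed ranged between 1 and 6 over the alternatives, and rested on single libraries: 6 passed without *Mov10* Deletion 2, 5 without *Mov10* Deletion 3, 4 without WT 1 or WT 3, and 1 without WT 2.

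**Figure D3:**
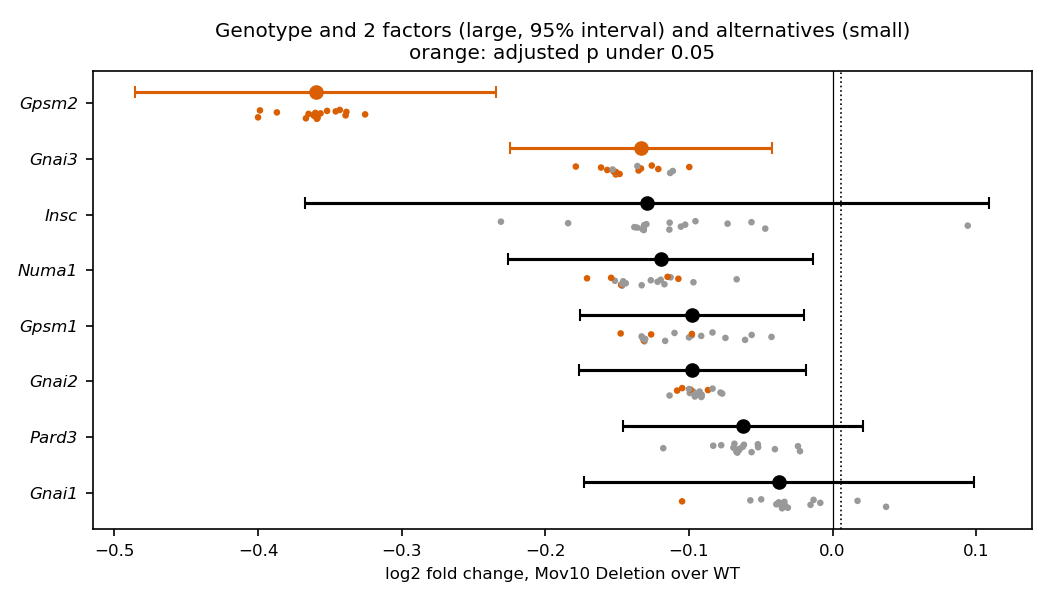
Log2 fold change, *Mov10* Deletion over WT (horizontal axis), of the 8 genes in order of size. The large points show the fit with genotype and 2 factors with its 95% interval, the small points show the 19 alternative settings, orange marks an adjusted p under 0.05, and the dotted line is the median of all tested genes (0.01). All small points of *Gpsm2* are orange, between -0.40 and -0.33, and those of the other genes crowd between -0.23 and 0.09.

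Per length, in TPM (abundance scaled to transcript length and library size) summed over each gene, the order of the levels was *Gnai2*, *Gnai3*, *Gpsm1*, *Gnai1*, *Numa1*, *Pard3*, *Gpsm2* and *Insc* in both groups. The mean levels were 215.2 ± 9.48 TPM in *Mov10* Deletion and 224.3 ± 8.42 TPM in WT for *Gnai2*, and 140.4 ± 2.92 TPM in *Mov10* Deletion and 156.9 ± 1.13 TPM in WT for *Gnai3* (SD, n = 3 each). *Gpsm1* and *Gnai1* did not differ beyond their spread, at 108.9 ± 6.08 and 105.4 ± 6.05 TPM in *Mov10* Deletion and at 113.4 ± 3.09 and 107.4 ± 4.93 TPM in WT. LGN mRNA was thus well below that of AGS3: *Gpsm2* was at 23.5, 18.7 and 16.2 TPM in *Mov10* Deletion and at 24.8, 23.2 and 23.0 TPM in WT. In these TPM the *Gpsm2* groups overlapped. *Gpsm2-202*, a model of 187 bases with under 1% of the gene's counts, took 12.4% to 38.2% of its TPM in *Mov10* Deletion and 23.4% to 26.3% in WT. The full-length *Gpsm2-201* alone was at 13.7, 12.3 and 13.0 TPM in *Mov10* Deletion, against 17.4, 16.0 and 16.7 TPM in WT, without overlap.

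The files list 74 transcripts of the 8 genes, of which 32 passed the filter and 0 were called by limma-trend. Over all 47158 transcripts tested, 8 were called (0.017%), 5 of them lower (0.0106%). The edgeR quasi-likelihood test without factors, an alternative added after the data were seen, called 1 of the 32 and 503 of 47165 in all (1.07%). That transcript, *Pard3-224*, had 0 counts in each WT library and passed the filter only through the *Mov10* Deletion libraries. A test of unequal change among the transcripts of a gene (limma diffSplice) called 1 of the 5 genes with several tested transcripts, *Pard3* (adjusted p = 0.0215), against 7.6% of the 10338 genes tested in this way. This call rested on the same *Pard3-224*, and with a filter of 1 CPM, which leaves it out, the adjusted p was 0.993.

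*Numa1-201*, which starts at 101618844 and codes for the full protein, held 81.3%, 80.7% and 80.9% of the *Numa1* counts in *Mov10* Deletion, against 80.2%, 79.1% and 81.9% in WT. *Numa1-202*, a model of 2934 bases that holds only the end of the gene, had 9.06%, 9.10% and 8.97% in *Mov10* Deletion, against 9.08%, 9.98% and 8.45% in WT. *Numa1-206*, which begins at 101619387 and stops inside the coding sequence, had 7.42%, 7.56% and 7.85% in *Mov10* Deletion, against 8.14%, 8.50% and 7.37% in WT. The shares were nearly the same in both groups, and exact permutation tests (two-sided, smallest possible p = 0.1) gave p = 0.6 for *Numa1-201*, 0.8 for *Numa1-202* and 0.4 for *Numa1-206*. *Numa1-204* and *Numa1-207*, incomplete models that begin at an upstream first exon (101583318 and 101583345), held 0.864% to 1.29% and 0.761% to 1.09% of the counts in *Mov10* Deletion, against 0.834% to 1.25% and 0.868% to 1.19% in WT. *Numa1-208*, another incomplete model, held 0.174% to 0.442% in *Mov10* Deletion and 0.255% to 0.394% in WT, and the intron-retaining *Numa1-205* held 0.107% to 0.253% in *Mov10* Deletion and 0.0851% to 0.134% in WT. *Numa1-203* had 1.50, 0 and 1.55 counts in *Mov10* Deletion and 0 in each WT library, and was not tested.

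None of the *Numa1* transcripts passed by limma-trend. Log2 fold changes were -0.15 for *Numa1-201* (limma-trend adjusted p = 0.147), -0.19 for *Numa1-202* (0.210) and -0.24 for *Numa1-206* (0.167). It was -0.16 for *Numa1-204*, -0.29 for both *Numa1-207* and *Numa1-208*, and 0.28 for *Numa1-205*, with adjusted p of 0.495 to 0.714. The models that hold the microRNA seed matches (*Numa1-201* and *Numa1-202*) and the model without them that held most counts (*Numa1-206*) had estimates of the same sign. *Numa1-206* stops inside the coding sequence and has no annotated 3′ UTR, so that this comparison cannot bear on the matches. Transcript usage within *Numa1* did not pass (diffSplice adjusted p = 0.879). Most of these models overlap *Numa1-201* along their length, so that the estimated counts depend on how Salmon divides shared reads.

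**Figure D4:**
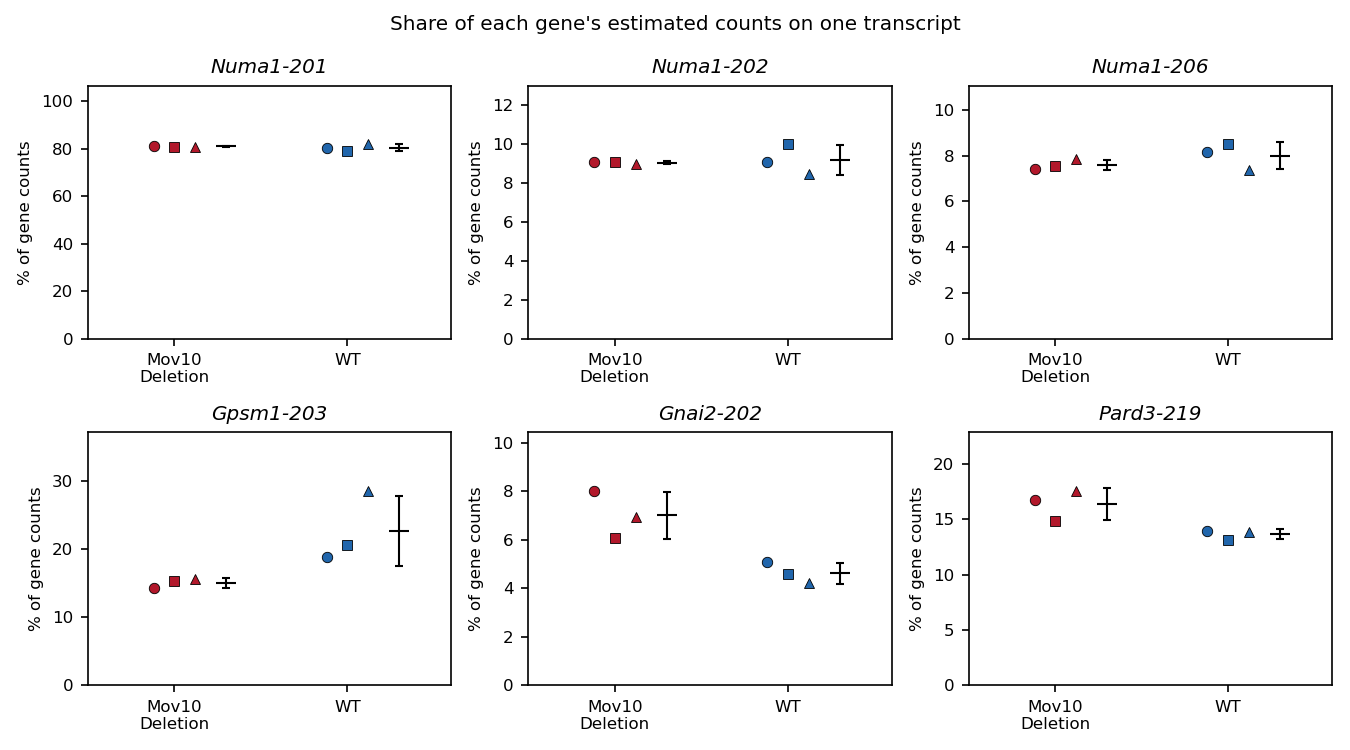
Share of a gene's estimated counts (vertical axes, percent, from 0, a scale of its own in each panel) held by 6 transcripts in *Mov10* Deletion (red, left) and WT (blue, right), with circles, squares and triangles for replicates 1, 2 and 3 and bars for the mean ± SD (n = 3). The 3 *Numa1* transcripts overlap between the groups, *Gpsm1-203* is lower in *Mov10* Deletion (14.2% to 15.5%) than in WT (18.9% to 28.6%), and *Gnai2-202* and *Pard3-219* are higher in *Mov10* Deletion.

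*Gpsm1-203*, which skips the 60-codon cassette exon, held 14.2%, 15.3% and 15.5% of the *Gpsm1* counts in *Mov10* Deletion, against 18.9%, 20.6% and 28.6% in WT. *Gpsm1-202*, which includes the exon, held 82.6%, 81.3% and 80.7% in *Mov10* Deletion, against 78.7%, 77.0% and 69.3% in WT. The shares did not overlap, and WT 3 stood apart from the other WT libraries. The log2 fold change was -0.69 ± 0.06 (SE) for *Gpsm1-203* (limma-trend adjusted p = 0.0591) and -0.03 ± 0.04 for *Gpsm1-202* (0.706), so that the lower sum of the gene lay in the form without the exon. With a filter of 1 CPM *Gpsm1-203* passed (adjusted p = 0.0450), and so did usage within the gene (0.00520, against 0.0901 with the filter used). *Gpsm1-204*, named after its values were seen, begins at an internal start (26220403) and held 0.299% to 0.806% in *Mov10* Deletion, against 0.108% to 0.288% in WT, with a called change of usage (diffSplice adjusted p = 0.0449), as had 3.47% of all transcripts so tested.

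*Gnai2-201* held 91.1%, 93.1% and 92.3% of the *Gnai2* counts in *Mov10* Deletion, against 94.4%, 94.7% and 95.3% in WT. *Gnai2-202*, named after its values were seen, has in GENCODE M39 the same coding sequence with a last exon of 591 in place of 974 bases. It so lacks 383 bases of 3′ UTR there. In the files *Gnai2-202* is 1777 bases long and *Gnai2-201* 2215, against 1892 and 2275 in GENCODE M39. *Gnai2-202* held 8.02%, 6.09% and 6.93% in *Mov10* Deletion, against 5.06%, 4.58% and 4.20% in WT. The groups did not overlap in either share. The log2 fold change was 0.47 ± 0.08 (SE) for *Gnai2-202* (limma-trend adjusted p = 0.0886) and -0.15 ± 0.04 for *Gnai2-201* (0.111), and neither passed. Usage within *Gnai2* had an adjusted p of 0.297, and of 0.0476 with a filter of 1 CPM.

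*Pard3-209*, with exon 17 of 152 bases, held 51.2%, 53.9% and 53.4% of the *Pard3* counts in *Mov10* Deletion, against 55.4%, 54.9% and 52.6% in WT. *Pard3-219*, with the exon of 149 bases, held 16.8%, 14.8% and 17.6% in *Mov10* Deletion, against 14.0%, 13.2% and 13.8% in WT. The shares of *Pard3-209* overlapped and those of *Pard3-219* did not, and neither transcript passed (limma-trend adjusted p = 0.235 and 0.323). *Pard3-224*, named after its values were seen, had 110.5, 147.7 and 56.0 estimated counts in *Mov10* Deletion, against 0 in each WT library, at least 35.9-fold higher when 3 counts per WT library are taken as the floor. It is given as a description, since it entered the tests only through the group where it was high. *Pard3-213*, also named after its values were seen and with the same short exon 17, had the opposite pattern, 0 in each *Mov10* Deletion library, against 13.3, 174.7 and 215.5 counts in WT, and the filter left it out of the tests.

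Summed over all models with the short exon of 62 bases, the share of *Pard3* counts was 3.22%, 2.30% and 3.34% in *Mov10* Deletion, against 3.17%, 4.34% and 3.26% in WT. This sum overlapped between the groups (exact permutation p = 0.5, two-sided, smallest possible 0.1), so that *Pard3-224* lay within a form whose total share did not separate the groups. Summed over the models with the exon of 149 bases, the share was 16.8%, 14.8% and 17.6% in *Mov10* Deletion, against 14.0%, 13.2% and 13.9% in WT (exact permutation p = 0.1), without overlap. The usage call of *Pard3* was lost under 4 of 10 alternatives: without *Mov10* Deletion 1 (adjusted p = 0.0511), without WT 1 (0.0896), with replicate number in place of the factors (0.153) and with the filter of 1 CPM.

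*Gnai1* and *Gnai3* had a single transcript each in the files, and *Gpsm2-201* held 98.3% to 98.9% of the *Gpsm2* counts in *Mov10* Deletion and 98.8% to 99.0% in WT, so that their transcript values follow the gene. *Insc-201* held 87.9%, 91.8% and 57.6% of the *Insc* counts in *Mov10* Deletion, against 95.8%, 90.2% and 77.4% in WT. The third library of each group stood below the others, and in those libraries alone the intron-retaining *Insc-205* had 127.6 counts in *Mov10* Deletion and 73.2 counts in WT. Usage within *Insc* did not pass (diffSplice adjusted p = 0.344).

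The genes whose log2 CPM followed *Numa1* most closely over the 6 libraries, among 10156 protein-coding genes that averaged 10 CPM or more, were *Elk1* (Pearson r = 0.995), *Xkr7* (0.986), *Slc37a4* (0.983), *Ulk1* (0.983) and *Ptcd2* (0.983), and 73 genes had r over 0.95. *Elk1*, a transcription factor gene of the ETS family, was at 50.9, 55.8 and 59.7 CPM in *Mov10* Deletion, against 59.4, 60.6 and 62.3 CPM in WT. Like *Numa1*, it was lowest in *Mov10* Deletion 1 and overlapped between the groups. Within the set, r with *Numa1* was 0.878 for *Gpsm1*, 0.836 for *Pard3*, 0.617 for *Gnai3*, 0.593 for *Gpsm2*, 0.487 for *Insc*, 0.473 for *Gnai2* and -0.05 for *Gnai1*. These correlations over 6 libraries share the difference between genotypes and describe these libraries only.

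Among the lists of genes around the complex, that of cortical regulators of NuMA and LGN was called most often. The list also holds genes that act at spindle poles or in mitosis at large. Of its genes 12 of 22 were called (54.5%, against 24.7% of all tested genes), with 9 lower and 3 higher and a median log2 fold change of -0.08. Of these, *Tpx2*, a spindle assembly factor, averaged 36.6 ± 2.07 CPM in *Mov10* Deletion hippocampi, against 51.4 ± 0.873 CPM in WT (SD, n = 3 each, log2 fold change -0.49, limma-trend adjusted p = 0.00109), and *Aspm*, a spindle pole protein gene of microcephaly, averaged 23.1 ± 1.95 CPM in *Mov10* Deletion hippocampi, against 32.0 ± 0.857 CPM in WT (-0.49, 0.00210). *Hmmr*, which acts with NuMA at spindle poles, fell by 0.50 on the log2 scale. *Sapcd2*, *Plk1*, *Cdk1*, *Aurka*, *Ppp2ca* and *Epb41* were also called lower, and of these *Plk1*, *Cdk1* and *Aurka* are themselves mitotic kinases. The FERM and PDZ genes *Frmpd1* (log2 fold change 0.58) and *Frmpd4* (0.47), whose products bind LGN or AGS3, were called higher, as was *Epb41l2* (0.15), a protein 4.1 gene. The fall of the cycling cell markers given with *Gpsm2* moves with the mitotic genes of this list, and its part was not tested.

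Of the 22 genes of cytoplasmic dynein, dynactin and their adaptors, 4 were called higher and 2 lower (27.3%, close to the 24.7% of all tested genes), with a median of -0.02. *Nde1*, a dynein adaptor gene of microcephaly, averaged 22.9 ± 1.01 CPM in *Mov10* Deletion hippocampi, against 27.8 ± 0.496 CPM in WT (SD, n = 3 each, log2 fold change -0.29, limma-trend adjusted p = 0.00536), and *Dctn5*, a dynactin subunit gene, fell by 0.21 on the log2 scale. *Dync1i1*, an intermediate chain that is neuronal in the brain, was higher, by 0.25. The dynein list had members called in both directions.

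Of 22 tested genes of apical and basolateral polarity, of 23 listed, 2 were called higher and 4 lower (27.3%, again close to the 24.7% of all tested genes), with a median of -0.07. *Crb2*, an apical determinant of neural progenitors, averaged 15.8 ± 1.43 CPM in *Mov10* Deletion hippocampi, against 25.2 ± 1.52 CPM in WT (SD, n = 3 each, log2 fold change -0.67, limma-trend adjusted p = 0.00110). *Wwc1*, which encodes the aPKC-binding protein KIBRA, fell by 0.31 and *Dlg2*, a synaptic scaffold gene, was higher by 0.22 on the log2 scale. Among the genes of the PAR6 and aPKC partners of PAR3, *Pard6a* (-0.19) and *Prkci* (-0.13) were called lower, while *Pard6b* (0.0064), *Pard6g* (-0.12) and *Prkcz* (-0.06) did not pass. The PAR3 paralogue gene *Pard3b* was called higher (0.24).

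The G protein genes outside the Gαi family had members called in both directions, at shares of 15.8% to 30% against the 24.7% of all tested genes. Of 10 tested other Gα genes, *Gnal* was called higher (0.18 on the log2 scale) and *Gna12* (-0.18) and *Gna13* (-0.12) lower (30%). Of 12 tested Gβ and Gγ genes, *Gng4* (0.42) and *Gng3* (0.15), both neuronal Gγ genes, were called higher and 0 lower (16.7%), and *Gng7* was at 1.16 on the same scale with a limma-trend adjusted p of 0.0599. Of 19 tested exchange factor, RGS and other GoLoco genes, *Rgs5* (0.20) and *Rgs4* (0.18), which speed GTP hydrolysis by Gα, were called higher and *Ric8b* (-0.14), a Gα chaperone and exchange factor, lower (15.8%).

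**Figure D5:**
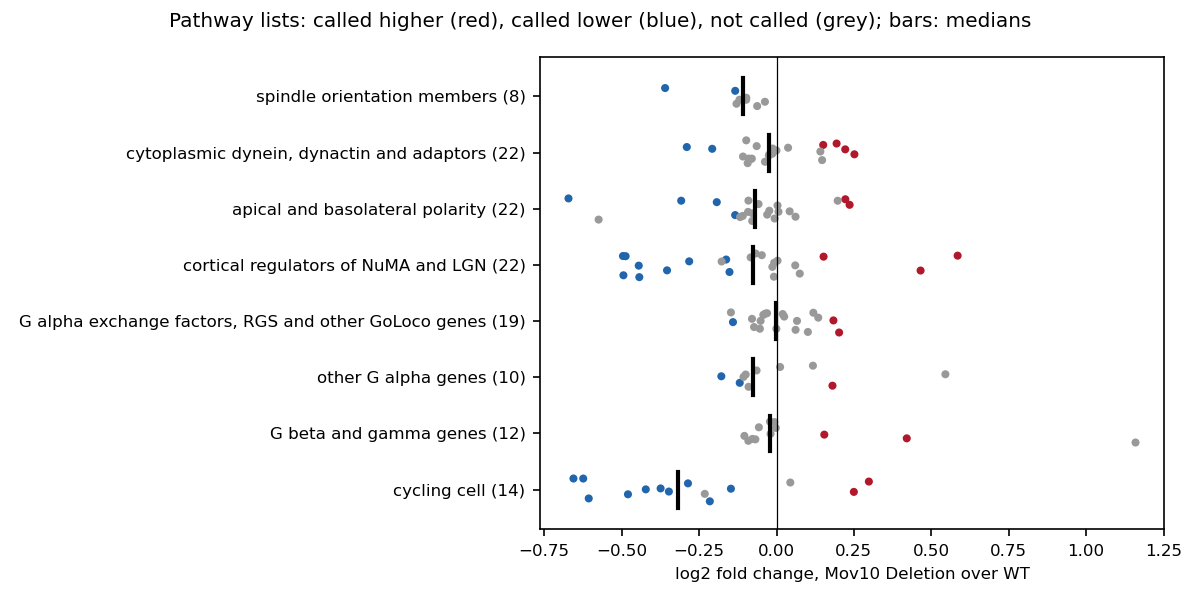
Log2 fold change, *Mov10* Deletion over WT (horizontal axis), of each tested gene in the 8-gene set, the 6 pathway lists and the cycling cell markers, with the number tested in parentheses, red for called higher, blue for called lower, grey for not called and black bars for the medians. The set has a median of -0.11 and the cycling cell markers have -0.32. The list of cortical regulators, which also holds spindle pole and mitotic genes, has -0.08 with 12 of 22 called.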

How the data were processed

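Libraries of poly(A) RNA from P0 hippocampi (3 per group, pooled pups) were grouped by their titles. The authors quantified reads with Salmon 1.4.0 on GRCm39. The deposited estimated counts are not normalized, and the deposited TPM values are scaled by effective length and depth. For the annotation release of the index, the sources used here give none. The files list 139225 transcripts, of which 137570 matched GENCODE M39 without version. Of these, 101125 had the same length in both, and *Numa1-201* had 7180 bases in the files and 7581 in GENCODE M39. Exons, UTRs and junctions are given as in GENCODE M39 and can differ from the models behind the counts. Unmatched ones held 0.589% to 0.600% of counts.

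Counts were summed per gene, not rounded for limma-trend, filtered at 0.25 CPM in 3 libraries, TMM-normalized and fitted by limma-trend (limma 3.58.1, edgeR 4.0.16, R 4.3.3, prior count 2) with 2 RUVs factors written out in R. The study names RUVSeq without the function. Because the factors come from these libraries, p-values measure the spread they leave, with 2 residual degrees of freedom and 5.89 borrowed across genes. Transcripts were fitted likewise, with diffSplice for usage. The edgeR and DESeq2 (1.42.0) alternatives used rounded counts. The scripts were tested on simulated data. The 8 genes and all lists were chosen with earlier results of these data known. The text names all 8 genes, all tested *Numa1* transcripts, other tested transcripts with at least 10% of gene counts, the 3 smallest p of each list and the 5 genes most like *Numa1*, with further names chosen after their values were seen.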

Additional observations from a re-analysis of the deposited data

How the results depend on the processing

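Over 19 gene-level alternatives, *Gpsm2* was called lower in 19 and *Gnai3* in 14, while *Pard3* and *Insc* passed in 0. The number of the 8 genes called, each of them lower, was 2 with the settings used, 4 with RUVr factors, and 1 each with the sex score, the replicate block, upper-quartile normalization and no filter on low counts, and ranged from 1 to 6 when a library was left out. All genes called fell to 1364 with the sex score and to 925 without a filter, against 4137. *Numa1* passed with RUVr factors (-0.15) and lay between -0.17 and -0.067 when a library was left out. *Gnai1* turned sign with the sex score (0.037) and was -0.10 to 0.017 without single libraries, and *Insc* was 0.094 with counts scaled from TPM. Among transcripts, 1 was called in each of 3 alternatives. It was *Pard3-224* without factors and by edgeR (added after the data were seen), and *Gpsm1-203* with a 1 CPM filter. *Pard3-224* entered the tests only through the *Mov10* Deletion libraries, the group where it was high. The number of genes with called usage was 1 (*Pard3*), but 0 with the replicate block and 0 to 1 when a library was left out. With a 1 CPM filter it was 2, *Gpsm1* and *Gnai2*, and *Pard3* was not among them. With libraries left out, *Gpsm1-202* ranged from -0.062 to 0.00099, *Gpsm1-213* from -0.15 to 0.27, *Gnai1-201* from -0.11 to 0.0064, *Numa1-204* from -0.34 to 0.023, *Pard3-226* from -0.021 to 0.016, *Pard3-221* from -2.62 to 1.23 and *Pard3-227* from -1.16 to 0.065. *Pard3-226* was 0.016 with a 1 CPM filter. The causes of these shifts were not tested. Replicate numbers gave no sign of pairing: deviations of same-numbered libraries correlated at 0.011, -0.071 and 0.043, and those of different-numbered libraries at -0.095 to 0.10. This check cannot exclude pairing, and the labels do not state it. With the replicate block in place of factors, *Gnai3* lost its call (adjusted p = 0.0565, limma-trend) and *Pard3* usage too (0.153), and *Gpsm2* kept its own (0.00576). Transcripts with under 1 CPM rest on few counts, and the transcript test called only 8 of 47158.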
